A study of Mus musculus with 12 samples.

Results

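The apolipoprotein L genes described here are 5 rows of a mouse read count table with 27179 gene rows: Apol6 (Entrez 71939), Apol8 (Entrez 239552), Apol9a (Entrez 223672), Apol9b (Entrez 71898) and Apol10b (Entrez 328561). They were taken by their symbols from the 13 rows named Apol followed by a number, and the other 8 rows are given after them. The genes were chosen by name, with earlier results of these libraries known. Apol8 had been selected on its measured fold change between dTAG-13 and control cells, so the members' values in that comparison are described without a test. RNA came from MC38-idAdpgkG cells, a C57BL/6 mouse colon carcinoma line that carries a doxycycline-inducible, degradable transgene for mutated Adpgk fused to turboGFP. The series concerns neoepitopes displayed on MHC class I.

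All 4 groups received mouse IFNg (interferon-gamma) at 20 ng/mL for 51 h, and no group was without it. Control cells had nothing else. For the doxycycline group, 1 µg/mL doxycycline was present throughout the 51 h. The dTAG-13 group had 1 µM dTAG-13, a small molecule that directs a tagged protein to degradation, only in the final 3 h, following 48 h of interferon alone. The doxycycline plus dTAG-13 group had both at these doses, with dTAG-13 again in the final 3 h. Each group had 3 libraries, which the labels describe as technical replicates of a single biological sample. Standard deviations and p-values therefore measure the spread between libraries of 1 culture per treatment, not between cultures.

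Apolipoprotein L proteins carry the name of human APOL1, a blood protein that lyses trypanosomes. Most members of the family stay inside the cell, bind membrane lipids and have been linked to autophagy, cell death and defence against intracellular microbes. Their genes form a cluster, and many of them respond to interferons through STAT and IRF factors that act on short promoter elements. Mouse Apol9a and Apol9b are close copies, described as interferon-induced antiviral proteins that bind phosphatidylethanolamine and prohibitins. The human counterpart of Apol6 has been described as a protein that promotes cell death.

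Library totals ran from 22165538 to 32809573 counted reads. Values are CPM, the normalised read count of edgeR on library sizes scaled with TMM factors. Adpgk had a mean of 160.5 ± 2.49 CPM in control cells, 1338 ± 20.1 with doxycycline, 181 ± 4.18 with dTAG-13 and 1369 ± 15.7 with both (SD, n = 3), and reads of the transgene cannot be told apart from those of the endogenous gene. None of the 9 colon epithelial markers had enough reads to be tested. Their summed level stayed between 0.220 and 0.809 CPM, and Epcam and Cdx2 had no read in any library. The summed level of 4 mesenchymal markers was 1582 to 1623 CPM in control, 1388 to 1401 with doxycycline, 1271 to 1285 with dTAG-13 and 1076 to 1118 CPM with both. Most of it was Vim, at 1502 ± 21.2, 1296 ± 10.3, 1201 ± 8.72 and 1028 ± 19.1 CPM in that order, while Zeb1 rose with doxycycline by 0.14 on the log2 scale (edgeR adjusted p 0.00671) and Col1a1 was near 0, at 0.0421 CPM in control. Leukocyte markers summed to 0.377 to 1.53 CPM with Cd3e at 0, and endothelial markers to 1.92 to 4.15 CPM. The part of these marker levels in the Apol results was not tested.

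The third library stood apart from the other two in 3 of the 4 groups. With both compounds, the mean chi-square per gene of replicate 3 against replicates 1 and 2 was 8.44 and 8.80, against 2.75 between those. With doxycycline it was 5.74 and 5.05 against 2.43, and in control 4.68 and 4.48 against 2.46, while the dTAG-13 libraries differed by 3.08 to 3.34. The members' values without these libraries stand beside the results they touch.

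In the GRCm38.p6 annotation of RefSeq, the same assembly as mm10, the 5 genes lie on chromosome 15, with Apol6 at chr15:77045050-77057108. The others lie further along, with Apol9a at chr15:77403789-77411080, Apol10b at chr15:77584154-77598542, Apol9b at chr15:77729047-77736382 and Apol8 at chr15:77745109-77757062. Promoter windows from 250 bases before to 50 bases after an annotated start were present for 4 of the 5 members and for 11 of the 13 Apol rows. The windows of Apol9a, Apol10b and Apol8 are shown to compare members with and without a match to an interferon-stimulated response element (ISRE), and that of Apol8, which has none, has no capitals. Capitals mark the match, searched as TTTCNNTTTC on one strand or GAAANNGAAA on the other. The Apol9a window is chr15:77411031-77411330, the Apol10b window chr15:77596076-77596375 and the Apol8 window chr15:77756961-77757260, all on the minus strand and written 5′ to 3′.
Apol9a: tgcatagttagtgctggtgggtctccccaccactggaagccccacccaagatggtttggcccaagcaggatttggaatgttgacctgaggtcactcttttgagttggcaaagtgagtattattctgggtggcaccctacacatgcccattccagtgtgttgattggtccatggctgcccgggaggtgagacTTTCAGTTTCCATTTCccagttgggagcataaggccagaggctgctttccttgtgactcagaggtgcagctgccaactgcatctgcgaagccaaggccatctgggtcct
Apol10b: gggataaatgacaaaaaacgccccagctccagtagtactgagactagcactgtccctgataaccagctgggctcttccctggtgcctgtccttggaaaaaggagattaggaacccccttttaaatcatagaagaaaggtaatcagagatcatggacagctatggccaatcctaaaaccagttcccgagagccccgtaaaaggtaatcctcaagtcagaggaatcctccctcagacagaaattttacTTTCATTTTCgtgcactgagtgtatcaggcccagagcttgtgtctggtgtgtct
Apol8: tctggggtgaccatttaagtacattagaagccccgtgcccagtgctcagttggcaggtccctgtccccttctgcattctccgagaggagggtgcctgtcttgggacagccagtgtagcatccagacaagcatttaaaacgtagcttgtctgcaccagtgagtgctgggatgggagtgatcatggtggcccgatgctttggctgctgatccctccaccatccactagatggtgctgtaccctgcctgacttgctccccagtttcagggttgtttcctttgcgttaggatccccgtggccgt

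Apol9a held 2 matches, TTTCAGTTTC and TTTCCATTTC, which overlap by 4 bases. The first letter of the pair lay 59 bases before the annotated start in the window shown and 37 bases before it in the Apol9b window. The Apol9a and Apol9b windows shared a stretch of 278 bases with 0 mismatches, so that the Apol9b window adds no different match. In Apol10b the match TTTCATTTTC began 4 bases before the start and ran across it. The windows of Apol10b and Apol7e lie within the annotated spans of these genes, whose outer 5′ ends were not searched. The letters were found in 3 of 4 members and in 8 of 11 Apol genes with a window, against 3.99% of 27025 genes. The 3 members with a match, Apol9a (0.44), Apol9b (0.44) and Apol10b (0.31), rose with doxycycline alone. Apol8, with none, fell (-0.50). Other Apol genes did not all follow this, and whether a match goes with the direction of change was not tested. With doxycycline alone, Apol7a, with no match, rose (0.63, edgeR adjusted p 0.00127) and Apol7e, with 2, did not pass (-0.06, edgeR adjusted p 0.897). Among dTAG-13 cells Apol7e rose with doxycycline (1.53, edgeR adjusted p 0.000104) and Apol7a did not pass (-0.04, edgeR adjusted p 0.867). Apol8 (0.66) and Apol7b (2.06), with no match, also rose there, and Apol10b, with 1, did not pass (0.22). Apol7e had only 10 to 44 reads per library and Apol7b 2 to 17. The 2 genes share much of their sequence, so reads of either may belong to the other. A second set of letters, TTCNNNGAA, which stands for the gamma-activated site, was found for 0 of the 4 members, for 3 of the 11 Apol genes and for 9.55% of genes. These are matches of letters in a fixed window and no measure of binding.

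Reads of similar genes can be assigned to the wrong copy. Of all stretches of 50 bases in the annotated transcripts, 52.3% of those of Apol9b also occur in Apol9a, and 16.5% of those of Apol9a occur in Apol9b. For Apol8 0% were shared with any other gene, for Apol6 1.73% and for Apol10b 6.11%. How reads with several possible origins were counted is not given in the sources used here, so the split between Apol9a and Apol9b is uncertain. Apol6 overlaps Mb, the myoglobin gene, by 5619 bases, but only 17 reads were counted for Mb in all 12 libraries together.

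Per kilobase of annotated exon, the level in control cells was highest for Apol9b, at 48.5 ± 1.32 CPM per kb. The length was that of all annotated exons joined, 5953 bases for Apol9a and 4498 for Apol6, against longest transcripts of 4246 and 2314. Apol8 followed at 22.1 ± 0.464 CPM per kb and Apol9a at 17.2 ± 0.708 CPM per kb. Apol6, at 5.30 ± 0.188 CPM per kb, and Apol10b, at 4.45 ± 0.451, were lowest, and their libraries did not overlap. With doxycycline the order of Apol8 and Apol9a on this scale was the opposite, at 15.6 ± 0.664 against 23.4 ± 0.480 CPM per kb. Their order in control, and the closeness of Apol6 and Apol10b, rest on the length chosen. With dTAG-13 the Apol8 level was 8.75 ± 0.714 CPM per kb against 19.9 ± 0.261 for Apol9a, while the libraries of Apol6 (4.35 ± 0.200) and Apol10b (4.79 ± 0.308) overlapped. With both compounds the levels were 73.3 ± 1.9 for Apol9b, 26.6 ± 0.586 for Apol9a, 13.7 ± 1.03 for Apol8, 8.76 ± 0.644 for Apol6 and 5.54 ± 0.394 CPM per kb for Apol10b.

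**Figure D1:**
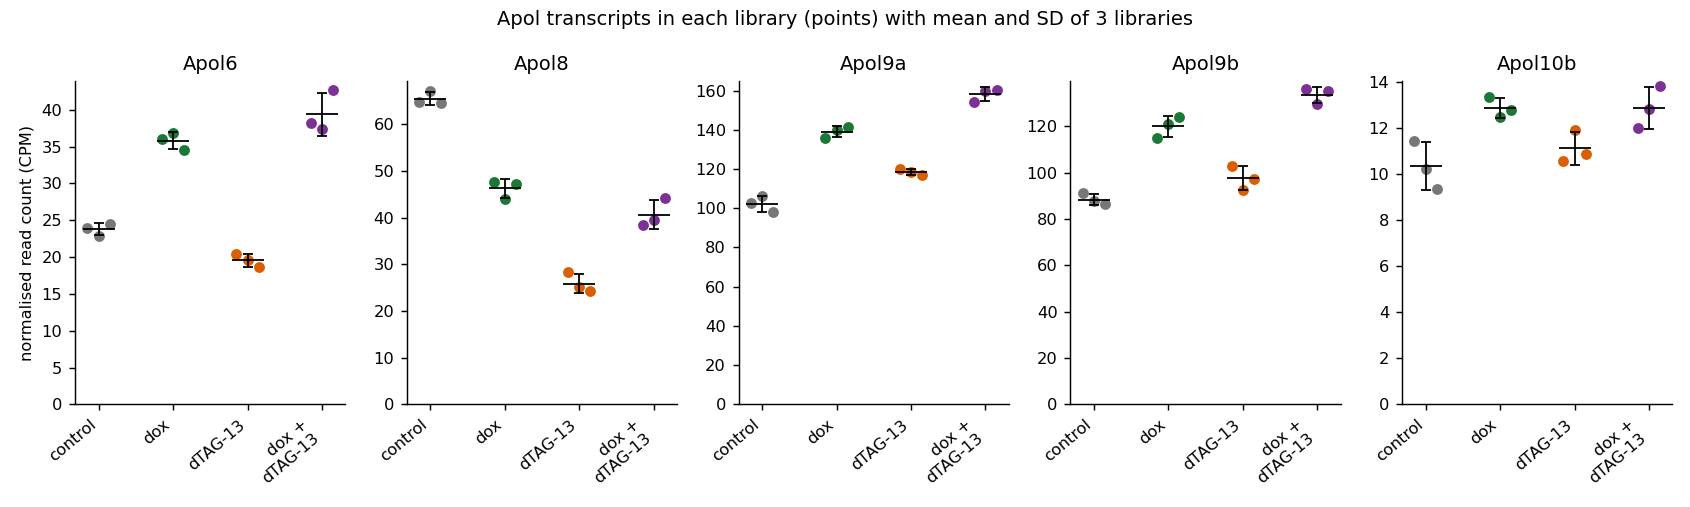
Normalised read count (CPM, linear axis from 0) of the 5 genes by treatment group. Each point is 1 library, and the bars give the mean and SD of 3 libraries. Apol8 is the gene whose control libraries, at 64.7 to 67.1 CPM, lie above all others, while Apol9a is highest with both compounds, at 154 to 160 CPM.

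Doxycycline alone moved Apol6, Apol9a, Apol9b and Apol10b up and Apol8 down. Apol6 had 24.0, 22.9 and 24.6 CPM in the control libraries and 36.1, 36.8 and 34.6 CPM with doxycycline. All 3 doxycycline libraries were above all 3 control libraries, and the log2 fold change was 0.59 (SE 0.0547, edgeR Benjamini-Hochberg adjusted p 1.79e-11). Apol8 had 64.9, 67.1 and 64.7 CPM in control and 47.7, 44.0 and 47.2 CPM with doxycycline. It was lower in every doxycycline library, with a log2 difference of -0.50 (SE 0.0482, edgeR adjusted p 1.29e-10).

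Of the 2 close copies, Apol9a had 103, 106 and 97.8 CPM in control and 136, 140 and 142 CPM with doxycycline. Apol9b had 91.0, 87.9 and 86.3 CPM in control and 115, 121 and 124 CPM with doxycycline. For neither copy did the groups overlap, and the log2 fold changes of Apol9a (0.44, SE 0.0299, edgeR adjusted p 1.74e-15) and Apol9b (0.44, SE 0.0349, edgeR adjusted p 4.69e-13) were alike in size. With the reads of both summed as 1 gene, the log2 fold change was 0.44. Apol10b, the least expressed member, had 11.5, 10.2 and 9.37 CPM in control and 13.3, 12.5 and 12.8 CPM with doxycycline. The groups did not overlap, and Apol10b rose by 0.31 on the log2 scale (SE 0.0818, edgeR adjusted p 0.00244).

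Thus 5 of 5 members were called at an adjusted p under 0.05, 4 higher and 1 lower, where 33.5% of all 12910 tested genes were called, 14.8% higher and 18.7% lower. The members are well-counted genes, with means over the 12 libraries from 11.8 CPM up, and among the 8815 genes at or above that level 42.4% were called, 16.6% higher and 25.8% lower. Without control replicate 3 and without doxycycline replicate 3, 5 members were called each time. It was also 5 without replicate 3 of the group with both compounds, which enters here only through the shared spread and scaling. Over all genes this split, 1917 higher and 2414 lower, became 2546 higher and 1607 lower with library sizes left unscaled, while the members' directions were the same. The median log2 fold change was 0.44 over the members and -0.01 over all tested genes. Groups did not overlap for 5 of 5 members and for 43.9% of all tested genes. These values share the control libraries with the comparison in which Apol8 had been named, a choice that favours a lower Apol8 value here. In bulk RNA, fewer cells that express a gene and less RNA per cell cannot be told apart.

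Doxycycline was also compared among cells that had dTAG-13, and here Apol8 was higher, not lower, with doxycycline. Apol8 had 28.3, 25.1 and 24.3 CPM with dTAG-13 alone and 38.4, 39.5 and 44.2 CPM with both compounds, a log2 difference of 0.66 (SE 0.0552, edgeR adjusted p 7.01e-12). Apol6 had 20.5, 19.6 and 18.7 CPM under dTAG-13 alone and 38.2, 37.3 and 42.7 CPM with both, a log2 difference of 1.01 (SE 0.0563, edgeR adjusted p 6.92e-18). The level of Apol6 was thus 2.02-fold higher, and the groups of both genes were apart.

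Apol9a had 120, 119 and 117 CPM with dTAG-13 and 154, 160 and 160 CPM with both, a log2 difference of 0.41 (SE 0.0296, edgeR adjusted p 1.51e-14). Apol9b had 103, 92.5 and 97.2 CPM against 136, 130 and 135 CPM, a log2 difference of 0.45 (SE 0.0347, edgeR adjusted p 2.88e-13). Every library with both compounds was above every dTAG-13 library for these copies. Apol10b had 10.6, 11.94 and 10.9 CPM against 11.99, 12.8 and 13.8 CPM, and its log2 difference of 0.22 (SE 0.0824, edgeR adjusted p 0.0558) did not pass. It was called without the filter on low counts (0.23), and on leaving out control replicate 1 (0.22), control replicate 3 (0.22), dTAG-13 replicate 2 (0.28), or replicate 1 of the group with both compounds (0.26).

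In this comparison 4 of 5 members were called, 4 higher and 0 lower, where 20.4% of all tested genes were called, 10.7% higher and 9.64% lower. Among the 8815 genes at or above the level of Apol10b 26.0% were called, 13.6% higher and 12.4% lower. Without replicate 3 of the group with both compounds 4 members were called, with Apol6 at 0.95 and Apol8 at 0.59. There were 5 without control replicate 3, a library outside this comparison. The split of 1386 higher and 1244 lower over all genes became 926 higher and 2132 lower with unscaled library sizes, under which the members kept their directions. Groups did not overlap for 5 of 5 members and for 34.3% of all tested genes. The median log2 fold change was 0.45 over the members and -0.00077 over all tested genes. The comparison shares the dTAG-13 libraries with the one in which Apol8 had been named, a choice that favours a higher Apol8 value here.

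**Figure D2:**
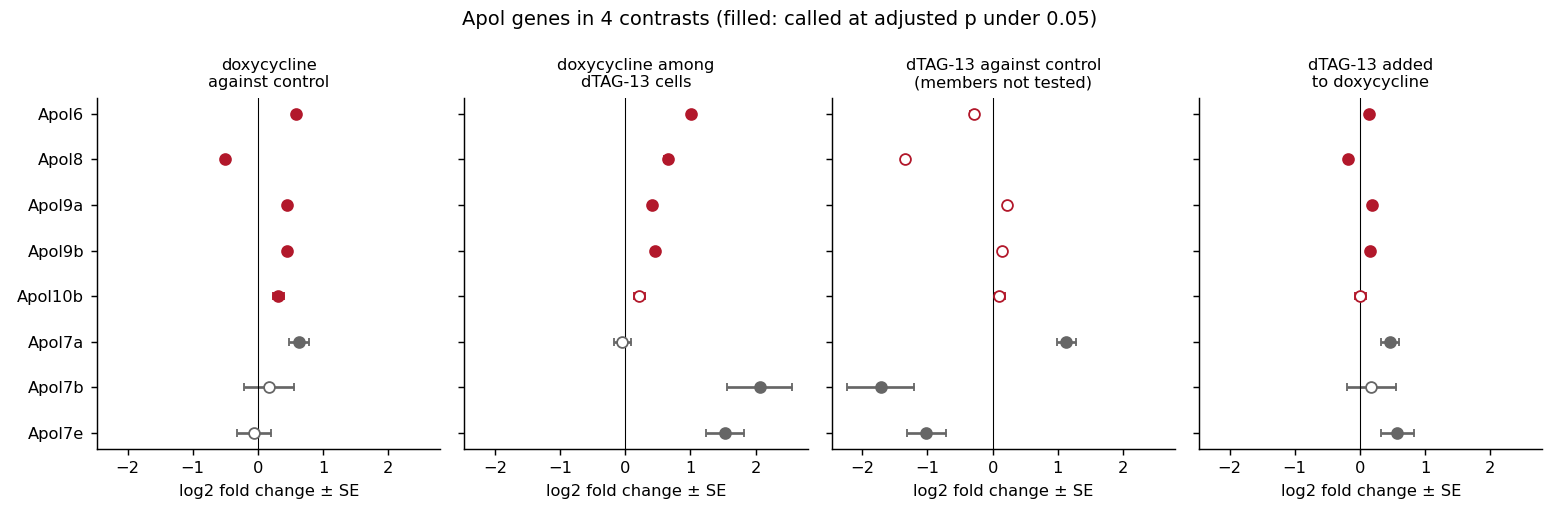
Log2 fold change with its standard error for the 5 members (red) and for Apol7a, Apol7b and Apol7e (grey) in 4 comparisons. Filled symbols passed an edgeR adjusted p under 0.05. The members were not tested in dTAG-13 against control. Apol8 lies at -0.50 for doxycycline alone and at 0.66 for doxycycline among dTAG-13 cells.

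For dTAG-13 against control, the members' values are a description. The mean of Apol8 was 65.6 ± 1.37 CPM in control and 25.9 ± 2.12 CPM with dTAG-13, a log2 fold change of -1.34 (SE 0.0518), and that of Apol6 was 23.8 ± 0.846 against 19.6 ± 0.901 CPM, a log2 fold change of -0.28 (SE 0.0590). Neither pair of groups overlapped. Apol9a, at 102.3 ± 4.22 against 118.7 ± 1.55 CPM, and Apol9b, at 88.4 ± 2.40 against 97.6 ± 5.26 CPM, had log2 fold changes of 0.21 and 0.14. These were 0.30 and 0.06 with length and GC content corrected for, and 0.31 and 0.23 with unscaled library sizes. The annotated length and GC content used for the correction differ between these copies. Apol10b had a log2 fold change of 0.10 (SE 0.0833) with overlapping groups, and its sign turned, to -0.08, with length and GC content of the transcripts corrected for. The members' median was 0.10 against 0.02 over all tested genes. Groups did not overlap for 4 of 5 members and for 65.5% of all tested genes. Of all tested genes 62.1% were called, 3877 higher and 4144 lower, and with unscaled library sizes 5256 higher and 3115 lower, where Apol8 was at -1.25 and the median of all genes at 0.11.

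The addition of dTAG-13 to cells with doxycycline shares no library with that comparison, and the members' changes in it were small. Apol8 had 47.7, 44.0 and 47.2 CPM with doxycycline and 38.4, 39.5 and 44.2 CPM with both. The highest library with both compounds was above the lowest with doxycycline, and the log2 fold change was -0.18 (SE 0.0515, edgeR adjusted p 0.00253). Apol9a was higher in every library with both compounds, with a log2 difference of 0.19 (SE 0.0293, edgeR adjusted p 5.04e-07), and so was Apol9b, with 0.15 (SE 0.0342, edgeR adjusted p 0.000146). Apol6 had a log2 difference of 0.14 (SE 0.0524, edgeR adjusted p 0.0171). Its call was lost without doxycycline replicate 1 (0.13), without doxycycline replicate 3 (0.12), and without replicate 3 of the group with both compounds (0.07). Apol10b, with 13.3, 12.5 and 12.8 CPM against 11.99, 12.8 and 13.8 CPM, had overlapping groups and a log2 fold change of 0.01 (95% interval -0.15 to 0.17, edgeR adjusted p 0.947).

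There were 4 of 5 members called in this comparison, 3 higher and 1 lower, where 64.1% of all tested genes were called, 30.7% higher and 33.4% lower. Among the 8815 genes at or above the level of Apol10b 78.3% were called, 34.8% higher and 43.5% lower. Without replicate 3 of the group with both compounds 3 members were called, with Apol8 at -0.25 (edgeR adjusted p 0.00013), Apol6 at 0.07 (edgeR adjusted p 0.273), Apol9a at 0.17 and Apol9b at 0.14, and without doxycycline replicate 3 there were also 3. Groups did not overlap for 3 of 5 members and for 67.2% of all tested genes. The median was 0.14 over the members and 0.0032 over all tested genes. Once length and GC content were corrected for, 2 of the 5 members were called, Apol8 (-0.19, edgeR adjusted p 0.00148) and Apol9a (0.31, edgeR adjusted p 3.18e-12). For this fit, and for those leaving out a library, the share of all tested genes called is not given here. Apol6 (0.10, edgeR adjusted p 0.0939) and Apol9b (0.01, edgeR adjusted p 0.735) no longer passed. The correction uses the longest annotated transcript and its GC content, which differ between Apol9a and Apol9b.

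Where the members stood by transcript length was also compared, with all genes put in 4 length classes of near equal size. For dTAG-13 against control, the median log2 fold change was 0.19 in the shortest class, up to 2081 bases, then 0.06 and -0.03, and -0.20 in the longest class, from 4733 bases. On top of doxycycline, dTAG-13 gave class medians of 0.28, 0.05, -0.07 and -0.29. The longest annotated transcript was 1573 bases for Apol9b, 2314 for Apol6, 2325 for Apol10b, 2801 for Apol8 and 4246 for Apol9a. Apol8, at -1.34 for dTAG-13 against control and -0.18 on top of doxycycline, thus lay below the medians of its class, 0.06 and 0.05. The first of these Apol8 values is the one it had been selected on. Apol9a, at 0.21 and 0.19, lay above the medians of its own class, -0.03 and -0.07. Its copy Apol9b, at 0.14 and 0.15, lay below those of the shortest class, 0.19 and 0.28. These opposite sides rest on the annotated lengths, 4246 and 1573 bases, which put the copies in different classes. Apol6, at -0.28 and 0.14, lay below and then above 0.06 and 0.05, and Apol10b, at 0.10 and 0.01, above and then below.

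**Figure D3:**
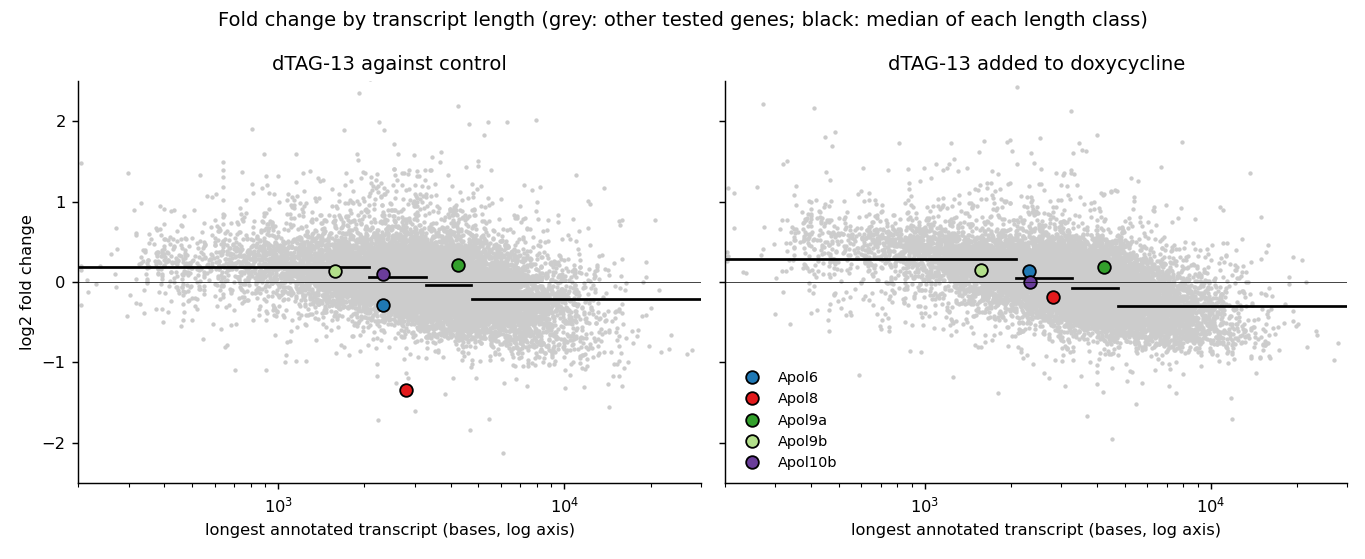
Log2 fold change against the length of the longest annotated transcript (log axis) for dTAG-13 against control and for dTAG-13 added to doxycycline. Grey points are tested genes, black lines the medians of the 4 length classes, and coloured points the 5 members. Apol8 lies at -1.34 and at -0.18, while the other members lie between -0.28 and 0.21.

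For Apol8 and Apol6 the value of each compound differed with the other compound present, given here with no test of the members. The choice of Apol8 on its difference between dTAG-13 and control favours a difference in the direction seen here. The ratio and shares below use the same libraries. On the log2 scale, the effect of dTAG-13 with doxycycline minus that without was 1.16 (SE 0.0733) for Apol8 and 0.42 (SE 0.0788) for Apol6. It was -0.03 (SE 0.0421) for Apol9a, 0.01 (SE 0.0492) for Apol9b and -0.10 (SE 0.116) for Apol10b. The makeup of the family's reads also differed between the groups. The ratio of Apol8 to Apol6 CPM was 2.76 ± 0.157 in control, 1.29 ± 0.0874 with doxycycline, 1.32 ± 0.0547 with dTAG-13 and 1.03 ± 0.0255 with both. Apol9a and Apol9b together held 65.6% ± 0.450 of the members' reads in control, 73.2% ± 0.909 with doxycycline, 79.3% ± 0.578 with dTAG-13 and 75.8% ± 1.11 with both. Between these copies, the share of Apol9a stayed at 53.6% ± 0.963, 53.7% ± 0.423, 54.9% ± 1.19 and 54.2% ± 1.06 in the same order, within the spread of the libraries. The 5 members summed to 290.4 ± 6.62 CPM in control, 354 ± 5.95 with doxycycline, 273 ± 8.41 with dTAG-13 and 385 ± 9.92 with both.

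The other 8 Apol rows were low, and 4 of them were tested. Apol7a (Entrez 75761) had 2.89, 3.32 and 2.24 CPM in control, 4.76, 3.50 and 4.83 with doxycycline, 5.30, 6.34 and 6.96 with dTAG-13 and 6.78, 5.42 and 5.90 with both. It was higher than control with either compound, by 0.63 on the log2 scale for doxycycline (SE 0.152, edgeR adjusted p 0.00127) and 1.13 for dTAG-13 (SE 0.144, edgeR adjusted p 9.85e-09). On top of doxycycline, dTAG-13 raised it by 0.46 (edgeR adjusted p 0.00351), a call lost without doxycycline replicate 2 (0.31). Among dTAG-13 cells its doxycycline value was -0.04 (edgeR adjusted p 0.867), with overlapping groups.

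Apol7b and Apol7e share much of their sequence, with 69.3% of the 50-base stretches of Apol7b also in Apol7e and 70.0% of those of Apol7e in Apol7b, so reads of either may belong to the other. Apol7b (Entrez 278679) had 10, 17 and 10 reads in control, 11, 14 and 16 with doxycycline, 4, 5 and 2 with dTAG-13 and 9, 15 and 17 with both. Apol7e (Entrez 666348) had 28, 33 and 38 reads in control, 41, 22 and 31 with doxycycline, 17, 22 and 10 with dTAG-13 and 37, 42 and 44 with both. Both were lowest with dTAG-13 alone. The log2 fold change for dTAG-13 against control was -1.72 for Apol7b (SE 0.512, edgeR adjusted p 0.00367) and -1.02 for Apol7e (SE 0.302, edgeR adjusted p 0.00355), where 62.1% of all tested genes were called and 32.1% were called lower. Among dTAG-13 cells both rose with doxycycline, Apol7b by 2.06 (SE 0.498, edgeR adjusted p 0.0021) and Apol7e by 1.53 (SE 0.290, edgeR adjusted p 0.000104). With doxycycline alone neither passed, at 0.17 for Apol7b (edgeR adjusted p 0.784) and -0.06 for Apol7e (edgeR adjusted p 0.897). On top of doxycycline, dTAG-13 gave 0.57 for Apol7e (edgeR adjusted p 0.0487), a call lost without any 1 of 9 of the 12 libraries (0.36 to 0.65), and 0.18 for Apol7b (edgeR adjusted p 0.702). Apol7d is annotated as a long non-coding RNA gene on chromosome 1, apart from the other Apol rows. It had 25, 25, 32 and 30 reads over the 3 libraries of the groups in the order above, and none of its 4 values passed. The untested rows were Apol11b, with 22, 4, 12 and 10 reads in that order, Apol10a with 1, 0, 2 and 1, Apol7c with 2 reads, both with doxycycline, and Apol11a with 0 reads, which allows up to 3 by counting error alone.

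Interferon genes outside the family were read from 2 lists chosen with earlier results known. Of 19 interferon-induced resistance genes, 16 rose and 1 fell with doxycycline, and 17 rose and 0 fell with doxycycline among dTAG-13 cells. Of all tested genes 14.8% were higher and 18.7% lower in the former, and 10.7% and 9.64% in the latter. Their median log2 fold changes were 0.42 and 0.54, where all tested genes had -0.01 and -0.00077. Mx1 rose by 1.58 with doxycycline (edgeR adjusted p 2.91e-05), though from only 0.467 CPM. Ifit3, which takes part in binding foreign RNA, rose by 1.36 with doxycycline (edgeR adjusted p 4.85e-15) and by 1.43 among dTAG-13 cells (edgeR adjusted p 1.49e-15), where Ifit1 of the same family rose by 1.38 (edgeR adjusted p 1.77e-17). Irgm1, an immunity-related GTPase, was the gene of the list that fell, by 0.16 on the log2 scale (edgeR adjusted p 8.52e-08). Under dTAG-13 the same list was divided. Against control 6 rose and 4 fell, with a median of 0.02, and on top of doxycycline 7 rose and 6 fell, with a median of 0.07, where 62.1% and 64.1% of all tested genes were called. Mx2 rose by 0.90 and by 0.86 in these comparisons (edgeR adjusted p 0.0142 and 0.00452), and Oasl2, an OAS-like protein, fell by 0.47 in the former (edgeR adjusted p 6.46e-12). Isg15, a ubiquitin-like modifier, rose by 0.59 in the latter (edgeR adjusted p 1.17e-15).

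Of 16 receptor, kinase and transcription factor genes of interferon signalling, 15 were tested. With doxycycline 9 rose and 1 fell (median 0.17), and with doxycycline among dTAG-13 cells 8 rose and 0 fell (median 0.11), where 33.5% and 20.4% of all tested genes were called. Irf7, a factor of the type I interferon response, rose by 0.95 with doxycycline (edgeR adjusted p 9.84e-11) and by 1.01 among dTAG-13 cells (edgeR adjusted p 1.86e-11). Stat2, a factor that acts on ISRE promoters, rose by 0.55 (edgeR adjusted p 3.92e-16) and 0.41 (edgeR adjusted p 8.26e-12). With dTAG-13, 4 rose and 7 fell against control (median -0.04), and 4 rose and 7 fell on top of doxycycline (median -0.02). These were 11 of 15 called in each, where the shares over all tested genes were 62.1% and 64.1%. Socs3, a feedback inhibitor of JAK signalling, fell by 0.42 against control (edgeR adjusted p 5.33e-08), and Ifngr1, a chain of the interferon-gamma receptor, rose by 0.25 (edgeR adjusted p 0.000229). Jak1, a receptor-bound kinase, fell by 0.43 on top of doxycycline (edgeR adjusted p 6.40e-19), and Irf2, an IRF1 antagonist, by 0.40 (edgeR adjusted p 3.20e-11). After the length and GC correction 7 rather than 11 of the 15 were called there.

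Reported partners of APOL proteins formed a list of 11 genes. Among them were the prohibitins Phb and Phb2, the kinase inhibitor Pebp1, the lipid kinase Pi4kb, its calcium-binding activator Ncs1 and the fusion protein Vamp8. The others were the autophagy proteins Map1lc3a, Map1lc3b, Gabarap, Gabarapl1 and Gabarapl2. With doxycycline 2 rose and 2 fell, where 33.5% of all tested genes were called, Gabarap by 0.31 (edgeR adjusted p 6.00e-08) and Phb by -0.27 (edgeR adjusted p 9.46e-05) on the log2 scale being the furthest in each direction. With dTAG-13 against control 9 rose and 1 fell, with a median of 0.17, and on top of doxycycline 10 rose and 1 fell, with a median of 0.29. Of all tested genes 62.1% were called in the former, 30.0% higher, and 64.1% in the latter, 30.7% higher, with medians of 0.02 and 0.0032. The shortest transcript class of all genes had medians of 0.19 and 0.28 in these comparisons. The part of transcript length in the partners' values was not tested. Map1lc3b rose by 0.35 against control (edgeR adjusted p 4.32e-07) and Gabarapl2 by 0.46 on top of doxycycline (edgeR adjusted p 1.77e-08). Ncs1 was the gene that fell, by 0.48 and by 0.55 on the log2 scale (edgeR adjusted p 8.71e-09 and 1.25e-09). After the length and GC correction 6 rather than 10 partners were called for dTAG-13 against control. Among dTAG-13 cells doxycycline gave 2 calls, Gabarap (0.18, edgeR adjusted p 0.00107) and Ncs1 (-0.16, edgeR adjusted p 0.0298). This count became 1 after the length and GC correction and 5 with RLE scaling or without the filter. It was 5 without control replicate 3, 4 without dTAG-13 replicate 1 or replicate 2 of the group with both compounds, and 1 without dTAG-13 replicate 3 or replicate 1 or 3 of that group.

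Around the members, 33 other protein-coding genes had their span within 500 kb, and 26 were tested. With doxycycline 1 of them rose and 6 fell (median -0.04), where 14.8% of all tested genes were higher and 18.7% lower. The one that rose was Rbfox2, a splicing factor gene between Apol6 and the other Apol genes of chromosome 15, by 0.06 (edgeR adjusted p 0.0317). Those that fell were Lrrc14, C030006K11Rik, Eif3d, Myh9, Rpl8 and Txn2, with log2 fold changes from -0.22 to -0.08. Myh9, the non-muscle myosin heavy chain gene next to Apol8, had 1223 CPM in control. It fell by 0.15 on the log2 scale with doxycycline (edgeR adjusted p 1.47e-07), by 1.04 under dTAG-13 (edgeR adjusted p 5.91e-34) and by 0.76 when the latter came on top of doxycycline (edgeR adjusted p 1.91e-29). Among dTAG-13 cells Myh9 rose with doxycycline by 0.13 (edgeR adjusted p 4.43e-06).

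In dTAG-13 against control 6 neighbours rose, with Recql4, a DNA helicase gene, the furthest (0.49, edgeR adjusted p 7.26e-09), followed by Zfp7, Commd5, Adck5, Vps28 and 1110038F14Rik. A further 10 fell, with Tonsl, a replication repair gene, next after Myh9 (-0.58, edgeR adjusted p 9.79e-12), then C030006K11Rik, Cpsf1, Lrrc14, Slc52a2, Ppp1r16a, Rbfox2, Arhgap39 and Txn2. On top of doxycycline 10 rose, namely Recql4 (0.65, edgeR adjusted p 5.06e-12), Commd5, Adck5, Mfsd3, Zfp7, 1110038F14Rik, Rpl8, Vps28, Eif3d and Txn2. The 7 that fell there were Myh9, Tonsl, Cpsf1, Rbfox2, Ppp1r16a, Arhgap39 and C030006K11Rik. Doxycycline among dTAG-13 cells raised 5, Recql4, 1110038F14Rik, Myh9, Vps28 and Rpl8, and lowered 2, Arhgap39 and Zfp251. The counts of called neighbours were thus 16, 17 and 7 of 26 in these 3 comparisons, where the shares over all tested genes were 62.1%, 64.1% and 20.4%.

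**Figure D4:**
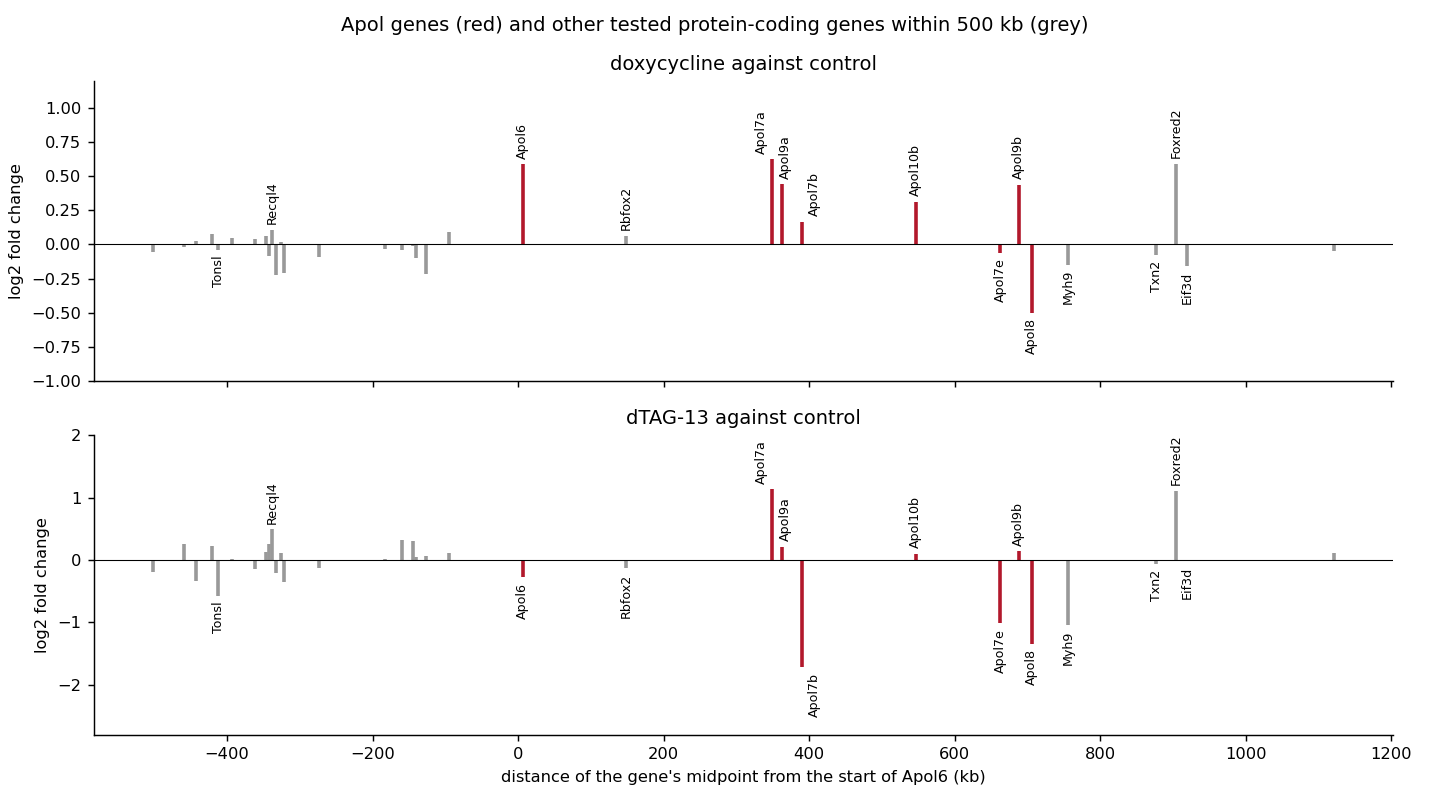
Log2 fold change of Apol genes (red) and of other tested protein-coding genes within 500 kb of a member (grey), placed by the distance of the gene's midpoint from the start of Apol6 in kb, for doxycycline against control and dTAG-13 against control. Apol8 and Myh9 lie side by side, at -0.50 and -0.15 in the upper panel and at -1.34 and -1.04 in the lower one. Foxred2, at 0.177 CPM in control, was not called in either.

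The genes with the most similar pattern were found by the root mean square difference of centred log2 group means over the 4 groups, among 11556 genes that averaged 1 CPM or more. Each gene gives only 4 points, so the likeness is a description with no test. For Apol6 they were Usp18 (0.0605), Oasl1 (0.0633) and Ifi205 (0.0683), and Usp18 had 3.42, 4.69, 2.78 and 5.20 CPM in control, doxycycline, dTAG-13 and both. Apol8 had no match as close, with Gm6153 (0.132), Tex11 (0.163) and Plec (0.165). Plec, the plectin gene, had 559, 465, 249.7 and 305 CPM in the same order. For Apol9a the nearest were Apol9b (0.0291), Samd9l (0.0299) and Nedd9 (0.0311), and for Apol9b they were Nedd9 (0.0095), Tubb2a (0.0198) and Olfr56 (0.0239). Among the nearest of Apol10b were Cdh10 (0.0184) and Mindy1 (0.0206).

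**Figure D5:**
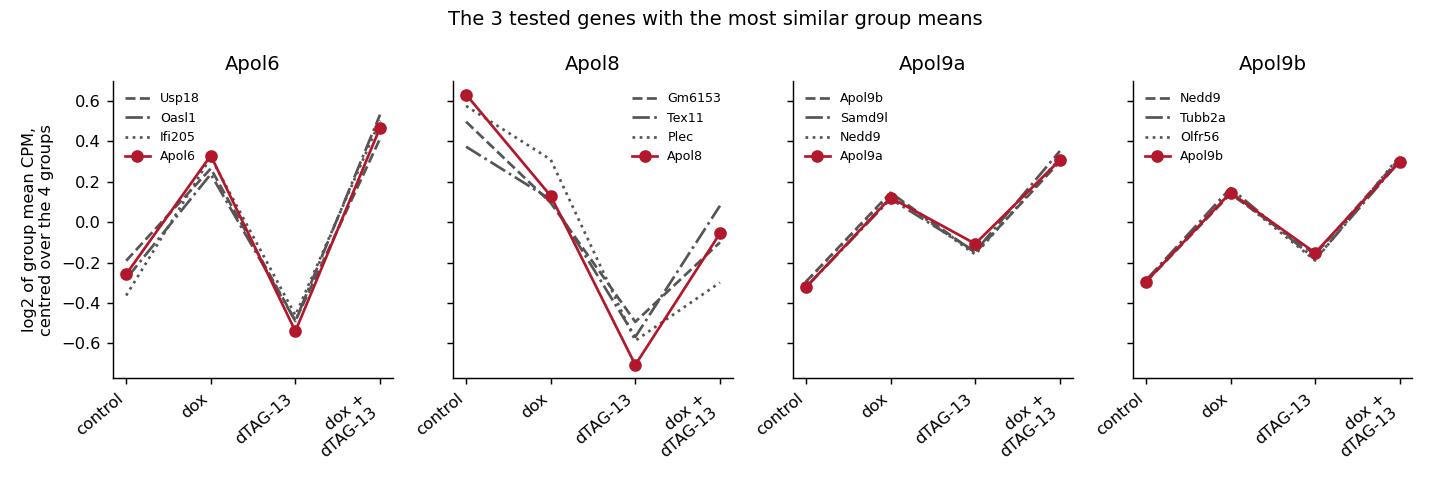
Log2 of the group mean CPM, centred over the 4 groups, for Apol6, Apol8, Apol9a and Apol9b (red), each with its 3 most similar tested genes (grey lines). Apol6 follows a course that drops with dTAG-13 and is highest with both compounds. Apol8 is highest in control, and its nearest gene lies at a root mean square difference of 0.132.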

How the data were processed

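RNA was measured in 12 libraries, 3 for each of 4 treatments. The authors deposited raw read counts per Entrez gene. Per the submitters' processing notes, bcl2fastq 2.17, featureCounts and mm10 were used, and per the file headers the alignments came from Subread. Not given in the sources used here: the annotation, the strand setting and the treatment of reads with several origins. Symbols came from RefSeq GRCm38.p6 for 25275 of 27179 IDs and from GENCODE for 18.

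The whole table was fitted with edgeR 4.0.16 in R 4.3.3, with filterByExpr by group (12910 genes tested), TMM factors from 0.9647 to 1.0349, 1 mean per group over all 12 libraries and the two-sided robust quasi-likelihood test, which was tested on simulated data. P-values were adjusted by Benjamini-Hochberg over all tested genes, with calls at an adjusted p under 0.05. SE of log2 fold changes came from the F statistic, and 95% intervals from the SE. CPM used the scaled library sizes.

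Members, lists and tests were chosen with earlier results of these data known. Always named were all Apol rows, of each list the 2 called genes with the largest absolute change per comparison, all called neighbours, and per member the 3 most similar genes, by log2 means with 0.01 CPM added, of which 1 is not reported here. Irgm1 and Foxred2 were chosen after their values were seen. Sequences are RefSeq's. Alternatives were RLE or library-size scaling, DESeq2 1.42.0, no filter, a filter of 1 CPM in 3 libraries, only the groups compared, a replicate block, a length and GC correction (splines with 5 degrees of freedom), Apol9a and Apol9b summed, and leaving out each library. Replicates differed beyond sampling noise (mean chi-square per gene 2.43 to 8.80) and each was counted.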

Additional observations from a re-analysis of the deposited data

Results flagged for a closer look

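The effect of dTAG-13 on Apol6 lay in opposite directions without and with doxycycline, a difference of 0.42 on the log2 scale. All dTAG-13 libraries were below control, and all libraries with both compounds were above doxycycline alone. The latter gap was narrow, with 37.3 CPM at the lowest against 36.8 CPM at the highest with doxycycline. The call of that rise (0.14) was lost in 4 settings. Among them were the length and GC correction (0.10, edgeR adjusted p 0.0939) and leaving out replicate 3 of the group with both compounds (0.07, edgeR adjusted p 0.273). The doxycycline effect on Apol8 lay in opposite directions without and with dTAG-13, a difference of 1.16. These differences of the members were not tested, and the choice of Apol8 on dTAG-13 against control favours the direction of its own. For Apol7a, Apol7b and Apol7e the dTAG-13 effect differed with and without doxycycline by an edgeR interaction test, with differences of -0.67 (adjusted p 0.0129), 1.89 (adjusted p 0.0281) and 1.59 (adjusted p 0.00277). They are named here because they passed it, while Apol7d did not (0.09, edgeR adjusted p 0.945). The share of all tested genes called in this test is not given here, so the calls cannot be set against it.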

How the results depend on the processing

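Over the alternatives, 499 of 520 values for the 5 members stayed on the same side of the threshold, or within the spread between libraries where no test was made. These include fits without a library outside the comparison, which enters only through the shared spread and scaling. The summed copies also count for both Apol9a and Apol9b, so the 520 values are not separate checks. The all-gene share called is not given here for the replicate block, the length and GC correction or fits leaving out a library. For doxycycline against control and for doxycycline among dTAG-13 cells, the number of members called stayed within 1.5 times under every alternative run. For dTAG-13 added to doxycycline it went from 4 to 2 with the length and GC correction, where Apol6 (0.10) and Apol9b (0.01) lost their calls and Apol10b turned to -0.17; the cause was not tested. Without single libraries the value of Apol10b ran from -0.053 to 0.052, that of Apol7e for doxycycline against control from -0.26 to 0.15, and that of Apol7a for doxycycline among dTAG-13 cells from -0.14 to 0.048. These 3 were not called in any direction.

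The interaction calls of Apol7a were lost without control replicate 3 (-0.53) or dTAG-13 replicate 3 (-0.57). That of Apol7b was lost without the filter on low counts (1.89), without control replicate 2, doxycycline replicate 1, dTAG-13 replicate 1 or 3, and without replicate 2 or 3 of the group with both compounds (1.60 to 1.93). Apol7b rested on 2 to 17 reads per library and Apol7e on 10 to 44, which limits what these libraries can show for them.

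Replicate numbers were shared between the groups but did not pair the libraries, since the correlations of same-numbered libraries ran from -0.02 to 0.08 and those of other pairs from -0.06 to 0.07. With the number as a replicate block, 5, 4 and 4 members were called for doxycycline against control, dTAG-13 added to doxycycline and doxycycline among dTAG-13 cells. The block ended 1 call among the Apol genes, that of Apol7e for dTAG-13 added to doxycycline (0.58, edgeR adjusted p 0.0536).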
